A study of Homo sapiens with 19 samples.

Results

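The promoters of 8 MCM genes were examined in chromatin immunoprecipitation with sequencing (ChIP-seq) of the retinoblastoma protein RB and of V5-tagged E2F1 in prostate cancer cell lines. Members were the deposited intervals that overlapped the 2 kb either side of the start sites of MCM2, MCM3, MCM4, MCM5, MCM6, MCM7, MCM8 and MCM10 in build hg19. There were 32 such intervals among the 203381 intervals of 10 lists. Each of the 10 groups of the series had 1 list.

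The RB lists come from C4-2 cells (2 libraries) and VCaP cells (1 library), both without treatment. The V5 lists come from C4-2 lines in which a V5-tagged E2F1 is under tetracycline control. The E2F1 is wild type (WT) or carries K185R, which replaces a lysine with arginine. Each of these lines was left untreated, given doxycycline (0.25 ug/ml for 3 days), given GSK2879552 (50 uM for 24 hours), or given doxycycline and then GSK2879552, with 2 libraries for each condition. GSK2879552 inhibits the lysine demethylase LSD1, and doxycycline is the usual inducer of tetracycline-controlled genes. All cells grew in medium with 5% charcoal-stripped serum, which is low in androgens. Whether a V5 line is a single clone, and whether tagged E2F1 was present without doxycycline, is not stated in the labels. The names of the V5 lists read siNTC where the labels say no doxycycline and siRB where they say doxycycline, and the groups below follow the labels. The libraries of a group share 1 list, so no value below has a replicate error and no p-value was computed between lists.

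MCM2 to MCM7 are the subunits of the ring-shaped helicase that is loaded onto replication origins before S phase and unwinds DNA once it is activated. MCM10 is not part of the ring and acts when the loaded helicase is turned on, and MCM8 works with MCM9 in homologous recombination. MCM genes are textbook targets of the E2F transcription factors, whose activator members such as E2F1 are bound and held back by RB.

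The RefSeq promoter table (build GRCh38.p14, 250 bases before to 50 bases after each start) matched 6 of the 8 genes. It was searched on both strands for the E2F letters TTTCCCGC, TTTCGCGC, TTTGCCGC and TTTGGCGC. At least 1 of them occurred at 5 of the 6 genes, which were MCM2, MCM3, MCM6, MCM7 and MCM8, and at 3.31% of all 35116 promoters of that length in the table. The search was not matched for base composition, and a match of letters is not a measured site. Here and for the other letters below, genes are counted over all their listed starts, whereas the share is of single promoter entries. MCM7 has 3 entries, of which the first alone held a longer form. Shorter forms, the same letters without the first T, overlap the longer ones and were present at the same 5 genes and at 13.0% of all promoters. MCM10 held neither form. The 250 bases upstream of the MCM6 start are shown because MCM6 had the highest RB fold of the 8 promoters. They lie on the minus strand at chr2:135876444-135876693, and capitals mark the E2F letters in either form, which overlap on both strands at both places:

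MCM6: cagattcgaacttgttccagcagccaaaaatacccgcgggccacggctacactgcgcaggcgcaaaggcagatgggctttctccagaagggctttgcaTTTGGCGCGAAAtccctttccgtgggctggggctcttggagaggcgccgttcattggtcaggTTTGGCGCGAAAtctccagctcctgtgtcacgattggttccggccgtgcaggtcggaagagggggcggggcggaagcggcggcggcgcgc

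The matches of the longer forms nearest to the start of MCM2, MCM3, MCM7 (the first of its 3 listed starts) and MCM8 are shown in 30 bases each, so that they can be compared with the pair in MCM6. Capitals again mark the E2F letters in either form, and where opposite strands overlap the capitals run through both. They lie in GRCh38.p14 at chr3:127598403-127598432 on the plus strand, chr6:52284727-52284756 and chr7:100101387-100101416 on the minus strand, and chr20:5950667-5950696 on the plus strand:

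MCM2: gtgaaccactTTTCGCGCGAAAcctggttg
MCM3: gttcggaagtTTTCGCGCcggggtggagtc
MCM7: gggggcgacgTTTCGCGCCAAtttcggttg
MCM8: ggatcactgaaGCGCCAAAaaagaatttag

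MCM2, MCM6 and MCM7 thus each held a run read as E2F letters from either strand. In MCM2 it spanned positions 3 to 14 after the start, and in MCM6 positions -152 to -141 and -90 to -79 before it. In MCM7 it spanned positions -9 to 2, with the longer form on the strand of the gene and the shorter form on the other. MCM8 also held a shorter form nearer to its start, at positions -9 to -3, which is not shown. Positions of letters count from the RefSeq starts in GRCh38.p14. Summit distances below count from the hg19 start sites, and neither was mapped onto the other. MCM10, shown next for its lack of these letters, lies on the plus strand at chr10:13161308-13161557:

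MCM10: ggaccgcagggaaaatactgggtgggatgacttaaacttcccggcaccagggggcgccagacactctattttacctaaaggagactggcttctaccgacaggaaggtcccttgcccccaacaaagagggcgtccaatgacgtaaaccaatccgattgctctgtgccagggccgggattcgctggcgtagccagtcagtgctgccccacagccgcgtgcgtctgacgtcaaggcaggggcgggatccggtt

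Other letters fixed for the search were the CCAAT box (CCAAT, at 5 of the 6 genes and 34.6% of all promoters), the SP1 box (GGGCGG, at 5 of 6 and 45.0%), the E-box (CACGTG, at 3 of 6 and 7.26%) and the CHR (TTTGAA or TTCGAA, at MCM6 and 16.4%). Some MCM promoters are shared with a neighbour. In the GRCh38.p14 gene table, the nearest edge of TPRA1 lay 180 bases upstream of the MCM2 start. That of PRKDC lay 805 bases upstream of MCM4 and that of TRMT6 119 bases upstream of MCM8. The nearest edge was taken whatever the strand of the neighbour, so it can be its start. AP4M1 overlapped the start of MCM7. An interval at these promoters cannot be assigned to 1 of the genes.

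The lists differed in depth. The deposited fold enrichment and −log10 p of an interval together fix the reads at its summit and the local background, and the genome-wide expectation of a list, termed the floor, was taken as the smallest background value that 5 or more of its intervals had in common. In the C4-2 RB list 2 intervals had a lower background. The floor corresponded to 8.21 reads per kilobase in the C4-2 RB list, 2.98 in the VCaP list and 0.716 to 1.79 in the V5 lists. The RB lists held 9146 intervals in C4-2 and 17026 in VCaP, and the V5 lists 2805 to 64025. Exact 95% Poisson intervals of the summit reads are given below as counting error, and reads from PCR without molecular identifiers are not independent molecules. Each fold enrichment and −log10 q is the authors' value for that interval and ranks it within its own list.

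RB intervals lay at 7 of the 8 promoters in C4-2, all but MCM8, and at 8 of 8 in VCaP. Of all windows of 4001 bases along the genome, 1.08% held an interval of the C4-2 list and 2.28% one of the VCaP list. These windows, here and below, run along whole chromosomes and are not matched to gene starts. The share at other promoters was not computed, so these counts are not shown to be particular to MCM genes. Each list had 9 intervals at these promoters, because MCM4 had 2 in C4-2 and MCM7 had 2 in both lines. All 9 C4-2 intervals overlapped a VCaP interval, as did 59.3% of all C4-2 RB intervals. By −log10 q, 6 of the 9 C4-2 intervals and 7 of the 9 VCaP intervals were in the top 10% of their list. The median fold was 8.86 in C4-2 and 12.2 in VCaP, against 5.69 and 5.50 over the whole lists.

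**Figure D1:**
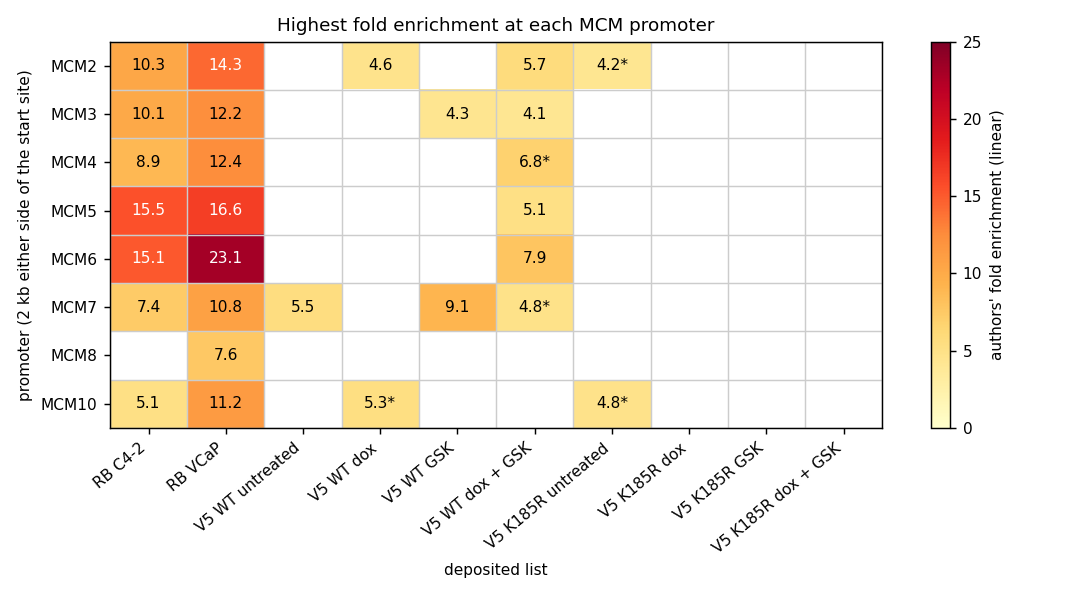
Authors' fold enrichment (linear, colour and number) of the highest interval at each MCM promoter (rows) in each deposited list (columns), with empty cells where a list had no interval. A star marks intervals that all lay more than 500 bases from the start site. The RB columns are filled except for MCM8 in C4-2, and among the V5 columns the WT list with doxycycline and GSK2879552 is filled for MCM2 to MCM7.

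By fold enrichment, MCM6 and MCM5 had the highest RB intervals in both cell lines. At MCM6 (start site on chromosome 2 at 136634047), the VCaP interval at 136633906 to 136634308 had a fold of 23.1, a −log10 q of 88.4 and 85 summit reads (67.9 to 105.1). It ranked 8 of 17026 by fold and 35 by −log10 q. The C4-2 interval at 136633885 to 136634267 had a fold of 15.1, a −log10 q of 36.1 and 41 reads (29.4 to 55.6). Both intervals contained the start site, and their summits were 25 bases apart.

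MCM5 (chromosome 22 at 35796116) led the promoters in C4-2. The C4-2 interval at 35795769 to 35796193 had a fold of 15.5, a −log10 q of 42.6 and 49 reads (36.3 to 64.8), and ranked 137 of 9146. The VCaP interval at 35795740 to 35796310 had a fold of 16.6, a −log10 q of 51.9 and 58 reads (44.0 to 75.0). The summits lay 188 and 129 bases upstream of the start.

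MCM2 and MCM3 were similar to each other. At MCM2 (chromosome 3 at 127317200) the folds were 10.3 in C4-2 and 14.3 in VCaP, with a −log10 q of 20.6 and 32.9. The 2 summits were 1 base apart, 29 and 28 bases downstream of the start. At MCM3 (chromosome 6 at 52149679) the folds were 10.1 and 12.2, with a −log10 q of 18.5 and 24.8, and the summits lay 110 and 34 bases downstream.

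MCM4 and MCM7 had a second RB site. At MCM4 (chromosome 8 at 48873453) the C4-2 list held an interval with its summit 142 bases upstream (fold 8.86, −log10 q 20.04) and another 714 bases upstream (fold 5.56, −log10 q 7.82). The VCaP list held 1 interval of 1150 bases there, the widest of all 32, with a fold of 12.4, a −log10 q of 65.7, 92 summit reads and a local background 10.3 times the floor. By −log10 q it came after MCM6 and before MCM5 in VCaP, and it had the most reads of the 32 intervals. At MCM7 (chromosome 7 at 99699427) the C4-2 summits lay 215 and 922 bases into the gene, with folds of 7.41 and 6.51 and −log10 q of 16.5 and 12.8. The VCaP summits lay 314 and 896 bases into the gene, with folds of 10.8 and 5.35 and −log10 q of 35.7 and 9.50. The RefSeq table lists 3 starts of MCM7 spread over 868 bases.

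MCM8 and MCM10 are the genes outside the ring. Of the C4-2 RB intervals at the MCM promoters, that of MCM10 had the lowest fold and −log10 q. At MCM10 (chromosome 10 at 13203554) the C4-2 interval at 13203691 to 13203852 had a fold of 5.09, a −log10 q of 3.72 and 10 reads (4.80 to 18.4), and it ranked 7355 of 9146. The VCaP interval at MCM10 was stronger within its list, with a fold of 11.2, a −log10 q of 20.8 and 27 reads, and it ranked 672 of 17026. At MCM8 (chromosome 20 at 5931298) the VCaP interval at 5931148 to 5931483 had a fold of 7.62, a −log10 q of 10.1 and 17 reads (9.90 to 27.2). No C4-2 interval lay at MCM8, so its RB level in C4-2 is not known.

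**Figure D2:**
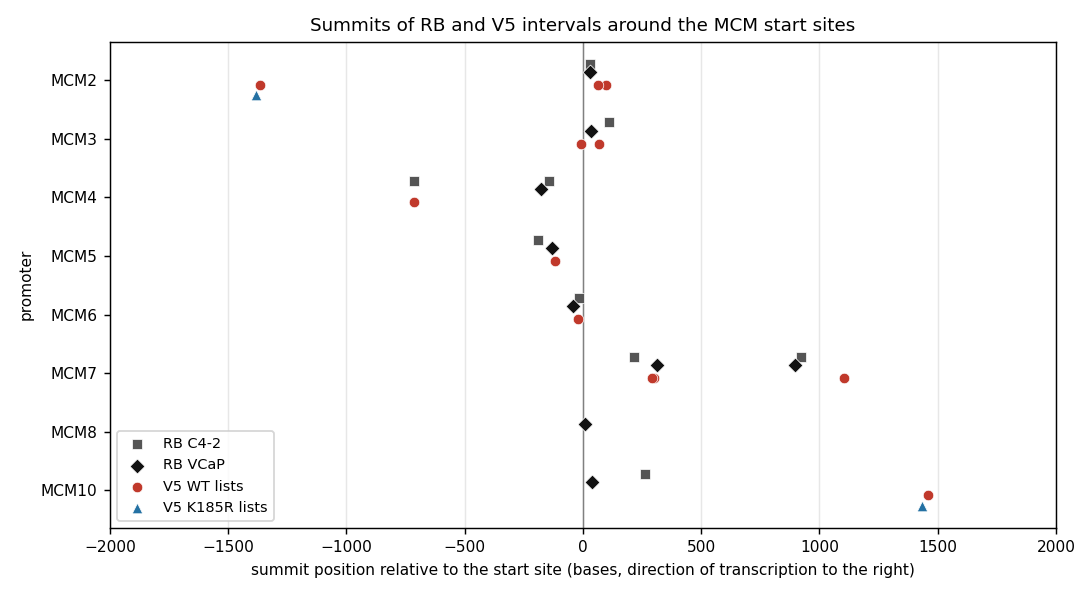
Position of each interval summit relative to the start site (bases, transcription to the right) for the 8 promoters, with RB intervals as squares (C4-2) and diamonds (VCaP), V5 intervals of WT lists as circles and of K185R lists as triangles. Summits of the K185R lists lie only at -1384 (MCM2) and 1432 (MCM10), both from the untreated list and away from the RB summits. WT with doxycycline has summits beside them, at -1364 (MCM2) and 1458 (MCM10).

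V5 intervals lay at 6 of the 8 promoters in the WT list with doxycycline and GSK2879552, which were the 6 ring subunits MCM2 to MCM7. This count fell to 2 (MCM4 and MCM6) with a −log10 q of at least 5, and equally among the 1000 intervals of highest −log10 q. Of all genome windows, 0.509% held an interval of that list. No other V5 list had an interval at more than 2 of the promoters. In WT lists the counts were 1 of 8 untreated (2.0% of windows), 2 of 8 with doxycycline (8.41%) and 2 of 8 with GSK2879552 (0.369%). In K185R lists they were 2 of 8 untreated (7.32%) and 0 of 8 with doxycycline (2.96%), with GSK2879552 (1.31%) and with both (0.461%). The 2 counts of 2 in WT with doxycycline and untreated K185R belong to the 2 longest V5 lists, and 4 of their 5 intervals lay more than 1 kb from the start.

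The WT and K185R lists with both treatments were close in length and depth, with 3874 and 3498 intervals and 0.810 and 0.838 reads per kilobase. They had intervals at 6 and 0 of the 8 promoters. With 1 list on each side, this difference has no replicate check. Over all 4 treatments, WT lists had an interval at 11 of 32 combinations of promoter and list, and K185R lists at 2 of 32. The list with both treatments gave 6 of the 11, so the pooled count rests largely on 1 list. The 32 combinations are 8 chosen promoters in 4 lists of unlike length, and are not replicates of WT or K185R. In all, the WT lists held 85803 intervals and the K185R lists 91406. Within 500 bases of the start site, WT lists had 8 combinations and K185R lists 0. Of these 8, 4 were in the WT list with both treatments. The share of all windows with an interval was not computed at 500 bases or over pooled lists. The pooled counts are thus not shown to be particular to MCM promoters. The pairs of lists that differ in GSK2879552 went from 1 to 2 promoters in WT without doxycycline and from 2 to 6 with it. In K185R they went from 2 to 0 without doxycycline, and both counts were 0 with it. Doxycycline went with 1 against 2 promoters in WT without GSK2879552, and with 2 against 6 on top of it. In K185R, doxycycline went with 2 against 0 promoters without GSK2879552, and with 0 in both lists on top of it.

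MCM6 and MCM4 had the highest folds in the WT list with both treatments. The MCM6 interval, at 136633970 to 136634207, had a fold of 7.85, a −log10 q of 7.54 and 10 reads (4.80 to 18.4), and ranked 615 of 3874. Its summit lay 2 bases from the C4-2 RB summit and 19 bases upstream of the start. The MCM4 interval, at 48872679 to 48872886, had a fold of 6.83, a −log10 q of 5.77 and 10 reads (4.80 to 18.4). Its summit was 1 base from the upstream RB summit of C4-2, 715 bases from the MCM4 start, and so lay on the side of PRKDC, the catalytic subunit of a DNA repair kinase.

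The other 4 intervals of that list rested on fewer reads. MCM2 had a fold of 5.71 with 7 reads (2.81 to 14.4), 65 bases downstream of the start and 36 bases from the C4-2 RB summit. MCM5 had a fold of 5.14 with 6 reads (2.20 to 13.1), 118 bases upstream of the start and 70 bases from the RB summit. MCM7 had a fold of 4.80 with 6 reads, 1103 bases into the gene, within the downstream of its 2 RB intervals. MCM3 had the lowest fold, 4.13 with 4 reads (1.09 to 10.2), and ranked 3529 of 3874. All 6 overlapped an RB interval of C4-2 and one of VCaP, whereas 31.2% of all intervals in that list overlapped a C4-2 RB interval. None was in the top 10% of the list by −log10 q.

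MCM7 was the promoter with V5 intervals in 3 WT lists. The interval with GSK2879552 alone, at 99698975 to 99699303, had a fold of 9.15, a −log10 q of 10.4 and 14 reads (7.65 to 23.5), the highest of the 14 V5 intervals. In untreated WT cells the fold was 5.51, with a −log10 q of 3.52 and 7 reads. These 2 summits lay 292 and 299 bases into the gene, at the RB site near the start, while that with both treatments lay at the other RB site. MCM3 also had an interval with GSK2879552 alone, with a fold of 4.33 and 4 reads, 66 bases downstream of the start.

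MCM2 and MCM10 had the remaining V5 intervals. With doxycycline alone the WT list held one 99 bases downstream of the MCM2 start, with a fold of 4.63 and 5 reads (1.62 to 11.7), which overlapped the RB interval. The same list held a second MCM2 interval 1364 bases upstream (fold 3.76, 4 reads), and the untreated K185R list held one 1384 bases upstream (fold 4.21, 5 reads). At MCM10 the WT list with doxycycline and the untreated K185R list had intervals 1458 and 1432 bases into the gene, with folds of 5.32 and 4.76 and 7 and 6 reads. These 4 intervals overlapped no RB interval of either cell line. Overlap was rare throughout these lists, since 1.57% of all intervals in WT with doxycycline and 1.76% in untreated K185R overlapped a C4-2 RB interval. Between the 2 lists the distances were 20 bases at MCM2 and 26 at MCM10. MCM8 had no V5 interval in any of the 8 lists. MCM4, MCM5 and MCM6 shared the same set of lists, which was both RB lists and WT with both treatments.

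**Figure D3:**
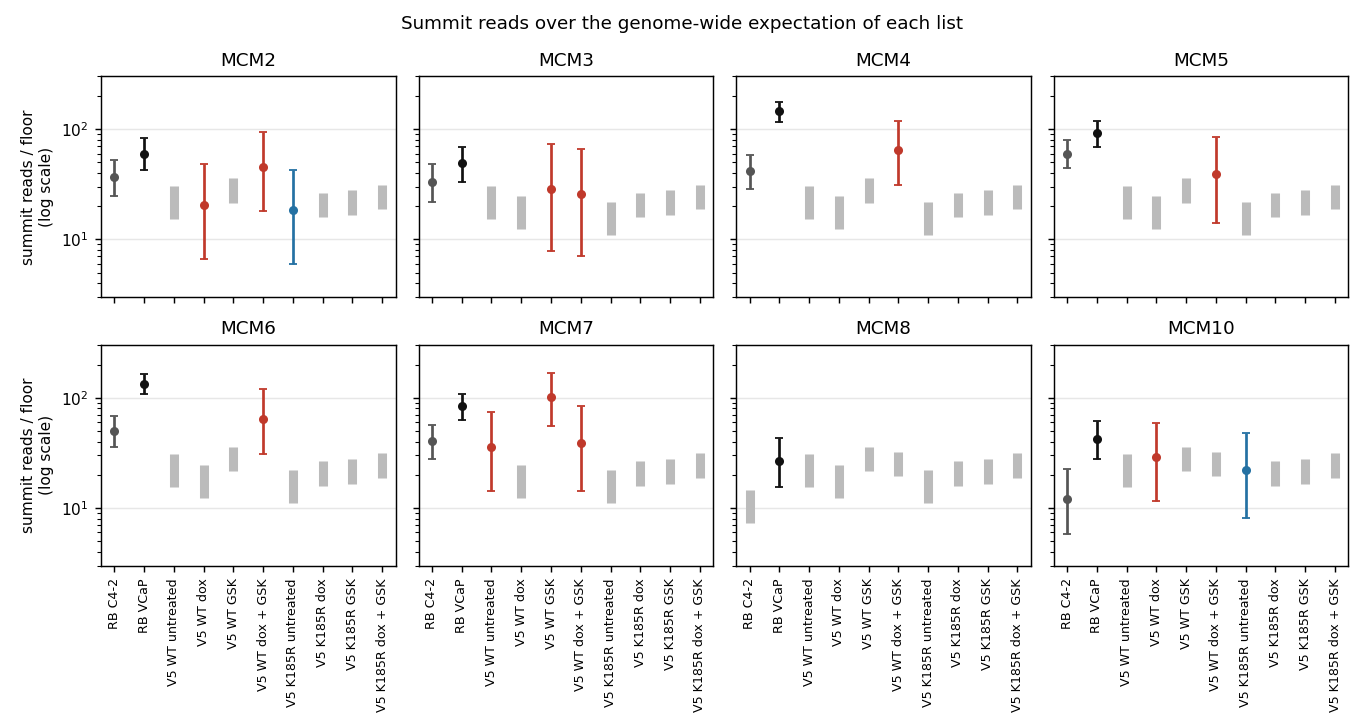
Summit reads divided by the genome-wide expectation of the list (log scale) for the highest interval at each promoter, with exact 95% Poisson intervals, in grey and black for RB, red for WT V5 and blue for K185R V5. Grey bars stand where a list had no interval and span the level needed for one, from a background at the floor to 4 times the floor. The MCM4 and MCM6 points of WT with both treatments lie at 64.7, and those of RB in VCaP at 144.9 and 133.9.

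The number of reads needed for an interval limits what can be said of the promoters without one. In each V5 list an interval needed at least 3 summit reads at the floor, and 5 or 6 at 4 times the floor. Local backgrounds of the 14 V5 intervals were 1.12 to 4.61 times the floor. The 10 reads at MCM6 and at MCM4 in WT with both treatments were 64.7 times the floor (31.0 to 118.9). The lists give no level below the number of reads needed, so a promoter without an interval is not shown to lack signal or to differ from WT with both treatments.

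At the RB sites of MCM promoters, the WT list with both treatments had the highest count of the V5 lists. It overlapped 6 of the 9 C4-2 RB intervals at MCM promoters, against 13.9% of all 9146 C4-2 RB intervals (Wilson 95% interval 13.2 to 14.6). The Wilson interval treats RB intervals as independent and does not measure variation between libraries or lists. A closer background is the strongest 25% by −log10 q (at least 9.53) of the 5233 RB intervals that both cell lines shared and whose local background was under 10 times the floor. Of these 1309 intervals, 23.5% overlapped an interval of that list, and 5 of the 7 MCM intervals among them did. Neither background was restricted to gene starts. The MCM promoters were chosen with earlier results known, and the closer background was added after seeing the data. In that list only the V5 intervals of MCM4 and MCM6 had a −log10 q of at least 5. WT with GSK2879552 overlapped 2 of the 9 (12.5% of all and 19.0% of the strongest 25%), WT untreated 1 of 9 (14.1% and 18.0%) and WT with doxycycline 1 of 9 (11.8% and 10.7%). Those 3 counts were near their backgrounds. K185R lists overlapped 0 of 9, with backgrounds of 11.4% and 8.63% untreated, 8.53% and 5.96% with doxycycline, 9.0% and 7.87% with GSK2879552, and 6.07% and 4.74% with both. At such shares a count of 0 among 9 is also near the background.

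**Figure D4:**
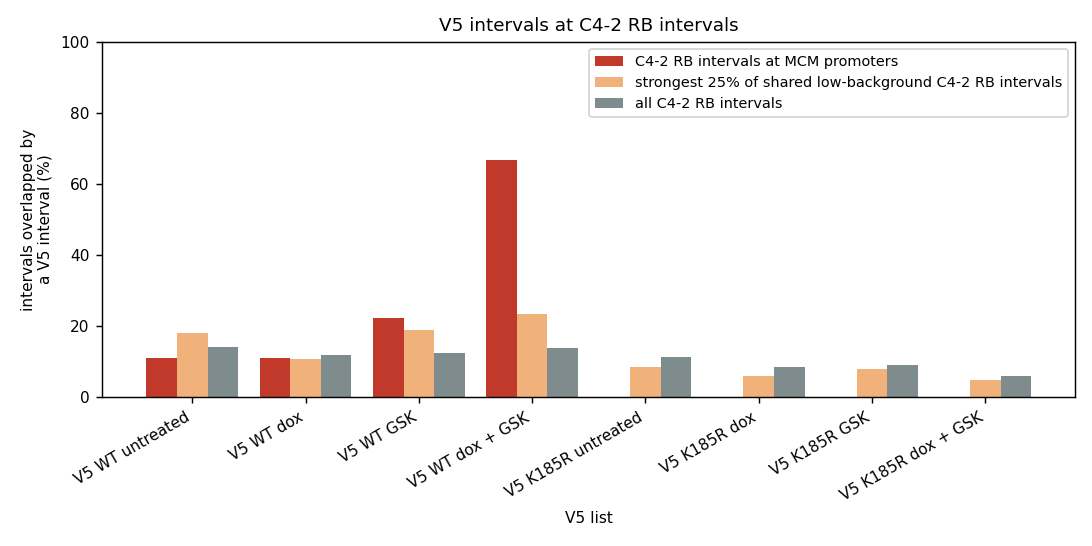
Share of C4-2 RB intervals overlapped by an interval of each V5 list (percent), for the 9 at MCM promoters, the strongest 25% of the shared low-background RB intervals and all 9146. The bar of the MCM promoters reaches 6 of 9 in WT with doxycycline and GSK2879552 and is at 0 in the 4 K185R lists.

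For 4 of the 9 RB intervals at MCM promoters, the WT list with both treatments was the only V5 list with an overlapping interval. They were the upstream interval of MCM4, those of MCM5 and MCM6, and the downstream one of MCM7. The same held for 2.90% of all C4-2 RB intervals and 6.95% of the strongest 25%. In all, 7 of the 9 overlapped an interval of some V5 list, against 25.4% and 36.4%. The exceptions were the RB interval at the MCM4 start and the one at MCM10. The limits of these backgrounds given above apply here as well.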

How the data were processed

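ChIP-seq libraries (19 in 10 groups) were represented by 10 interval lists in build hg19. The submitters' processing notes name MACS2 2.1.0, BWA 0.7.9a, SAMtools 1.2 and FastQC 0.11.9. Settings, any control library and duplicate removal were not stated there. For each interval the authors deposited a fold enrichment (a ratio with 1 added to both terms), −log10 p, −log10 q, an integer score (not used) and the summit.

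Summit reads and local background were solved from the fold and −log10 p, trying whole numbers of reads (Python 3.11.15, scipy 1.17.1). The recomputed −log10 p differed by at most 0.00016, and in 1000 simulated intervals per list 100% of reads were recovered. Reads needed for an interval were taken from the lowest −log10 p of each list. Overlap meant at least 1 base. All 8 genes are reported for every list, whether or not it had an interval there. Members and lists were chosen with earlier results of these data known, and the strongest 25% of shared RB intervals was added after seeing the data. No hg19 annotation was used, so other licensing genes are not analysed here. Strand came from RefSeq for 6 genes and from general knowledge for MCM4 and MCM5. Alternatives were other windows, summits, stricter thresholds and removal of high background.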

Additional observations from a re-analysis of the deposited data

How the results depend on the processing

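No paired analysis was possible because the libraries of each group share 1 list, and for the same reason no replicate could be left out. With 500 bases either side, WT with both treatments fell from 6 promoters to 4, WT with doxycycline to 1 and untreated K185R to 0. Combinations of promoter and V5 list fell to 8 for WT and 0 for K185R, and to 6 with GSK2879552 and 2 without it. They fell to 5 with doxycycline and 3 without it, and MCM4 and MCM10 had an interval in 0 V5 lists. The share of all windows with an interval was not computed at this width or at 5 kb. With 5 kb, untreated WT had 2 promoters, K185R with GSK2879552 had 1, and MCM6 had 2 V5 lists. With −log10 q of at least 5, and with the 1000 strongest intervals of each list, the values were the same as each other: 2 promoters in WT with both treatments, 1 in WT with GSK2879552, and 0 in WT untreated, WT with doxycycline and untreated K185R. Combinations were then 3 for WT and 0 for K185R, 3 with and 0 without GSK2879552, and 2 with and 1 without doxycycline. MCM7 then had 1 V5 list and MCM2, MCM3, MCM5 and MCM10 had 0. RB counts did not move by over 1.5 times, nor did any count when summits had to lie in the window or high-background intervals were left out. Shares of C4-2 RB intervals with a V5 interval, with summits within 100 bases, were 11.8%, 9.77%, 9.84% and 10.9% for WT (untreated, doxycycline, GSK2879552, both) and 9.76%, 7.23%, 7.45% and 4.85% for K185R. Among RB intervals shared with VCaP they were 10.8%, 7.18%, 11.7% and 13.3% for WT and 5.98%, 4.46%, 5.57% and 3.58% for K185R. A stricter threshold removes intervals of few reads by construction, and 11 of the 14 V5 intervals have a −log10 q under 5.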
